A study of Mus musculus with 12 samples.

Results

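Enzymes that write, keep and erase repressive chromatin marks were followed through development in Pdgfra/GFP+ cells, a population that after birth holds oligodendrocyte precursor cells (OPCs). In the single-cell data of the study, no OPC cluster was present at E13.5. The E13.5 clusters were named there as neural progenitors, pericyte lineage cells and embryonic vascular and leptomeningeal cells. The set comprised 10 genes of 47069 distinct gene identifiers in the expression table: the DNA methyltransferases Dnmt1, Dnmt3a and Dnmt3b, the DNMT1 cofactor Uhrf1, the methylcytosine dioxygenases Tet1, Tet2 and Tet3, the Polycomb methyltransferase Ezh2, and the histone deacetylases Hdac1 and Hdac2. They were chosen by name for their roles in DNA methylation, Polycomb repression and histone deacetylation. No rule on their measured values was used, although earlier results of these data were known. All 10 were among the 18319 genes that passed the filter on low values (0.7 CPM or more, reads scaled to library size, in 3 or more libraries) and were tested. GFP+ cells from the spinal cord and the brain (the forebrain, per the methods of the study) of E13.5 embryos and P7 pups (postnatal day 7) were profiled by total RNA-seq, with 3 libraries in each of the 4 groups. The donors of all 12 libraries were Pdgfra-H2BGFP knock-in mice on a C57BL/6NJ background, heterozygous and untreated, so every group carried 1 Pdgfra allele replaced by a histone-bound GFP. This GFP outlasts Pdgfra mRNA, and the gate can therefore hold cells that have already begun to differentiate, as well as other cells that use Pdgfra. Each library came from a pool of animals. Papain was used to dissociate the postnatal tissue and mechanical force the embryonic tissue, so that age and dissociation cannot be told apart.

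DNMT1, guided by UHRF1 to newly replicated DNA, copies methylation from the parental strand to the daughter strand, whereas DNMT3A and DNMT3B methylate sites that were bare before. TET enzymes oxidise methylcytosine and so open the way to its removal. EZH2 is the catalytic subunit of Polycomb repressive complex 2 (PRC2), which methylates lysine 27 of histone H3, and HDAC1 and HDAC2 are the deacetylases of the NuRD, SIN3 and CoREST complexes. In the oligodendrocyte lineage, DNMT1, EZH2 and the HDAC1/HDAC2 pair are known to be needed while precursors divide and when they leave the cell cycle.

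Depth ranged from 12566345 to 38790312 recovered reads per library. E13.5 spinal cord replicate 3 stood apart from the other 11 libraries, since protein-coding genes held 41.0% of its reads against 82.4% to 91.2% elsewhere. The deposited values of P7 brain had been scaled by factors 16.3%, 13.1% and 13.1% larger than the trimmed mean of M-values (TMM) method gives from the same reads, whereas the factors of the other 9 libraries equalled the TMM factors. The median tested gene was for that reason 0.19 log2 units lower at P7 than at E13.5 in brain and 0.02 lower with TMM scaling, so changes that involve P7 brain are given with both scalings where the call differs. Pdgfra itself was at 341 to 787 CPM in the E13.5 libraries and 2014 to 3402 CPM in the P7 libraries. The population differed with age in other ways. The summed level of 6 markers of differentiating oligodendrocytes (Enpp6, Bcas1, Mbp, Mag, Mog and Mobp) was 25.8 to 60.0 CPM at E13.5, 1196 to 2746 CPM in P7 brain and 8207 to 12105 CPM in P7 spinal cord. The sum of 7 pericyte and leptomeningeal markers was 4647 to 9380.4 CPM at E13.5 and 700.1 to 1903 CPM at P7. Of 6 microglial markers, summing to 15.7 to 70.9 CPM over the 12 libraries, Aif1 was under 1 CPM in all. Some of these levels moved with age and some with region. The differentiating markers differed with region at P7. At E13.5 the pericyte and leptomeningeal sum was 4647 to 7078 CPM in brain and 8136 to 9380.4 CPM in spinal cord. The microglial sum was then 18.8 to 30.1 and 43.3 to 70.9 CPM, and at P7 27.1 to 56.4 and 15.7 to 22.5 CPM. For 6 OPC markers the E13.5 sum was 795 to 1406 CPM in brain and 512 to 777 CPM in spinal cord. The part of these levels in the results was not tested. In bulk libraries, fewer cells of a type and less RNA per cell cannot be told apart.

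Because the largest differences between regions at E13.5 among the 10 genes were those of Dnmt1, Uhrf1 and Ezh2, their promoter sequences are given first. Each window runs from 250 bases before to 30 bases after a RefSeq transcription start of build GRCm38.p6. It is read 5′ to 3′ on the strand of the gene. Whether the chosen start of a gene is the start used in these cells was not tested. The Dnmt1 window is chr9:20959859-20960138 on the minus strand, that of Uhrf1 chr17:56303087-56303366 on the plus strand and that of Ezh2 chr6:47595001-47595280 on the minus strand. Capitals mark CCAAT on either strand (ATTGG where it lies on the opposite strand) and, in Ezh2, an E2F-type word.
Dnmt1: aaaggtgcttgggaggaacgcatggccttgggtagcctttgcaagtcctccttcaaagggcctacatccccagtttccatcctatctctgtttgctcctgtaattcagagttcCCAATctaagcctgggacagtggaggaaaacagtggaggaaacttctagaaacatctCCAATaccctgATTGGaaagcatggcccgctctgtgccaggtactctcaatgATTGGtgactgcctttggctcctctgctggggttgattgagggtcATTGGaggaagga
Uhrf1: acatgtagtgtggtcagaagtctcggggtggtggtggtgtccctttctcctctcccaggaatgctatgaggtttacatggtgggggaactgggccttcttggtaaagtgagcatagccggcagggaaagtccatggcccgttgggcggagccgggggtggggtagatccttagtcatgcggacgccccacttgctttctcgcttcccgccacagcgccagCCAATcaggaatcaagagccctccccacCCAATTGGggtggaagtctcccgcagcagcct
Ezh2: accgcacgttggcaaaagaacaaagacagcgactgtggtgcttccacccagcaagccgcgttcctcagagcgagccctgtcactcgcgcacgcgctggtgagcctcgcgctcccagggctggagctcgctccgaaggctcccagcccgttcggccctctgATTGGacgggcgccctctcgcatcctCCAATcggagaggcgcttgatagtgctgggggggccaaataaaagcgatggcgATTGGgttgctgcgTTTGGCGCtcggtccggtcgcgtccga

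CCAAT was searched on both strands in the windows of all 27025 genes of the RefSeq table and was present in 36.5%. A window was found for 9 of the 10 genes, Hdac1 being the exception. Among the 9, CCAAT was present in 4: Dnmt1 had 5 matches, Uhrf1 and Ezh2 had 3 each, and Tet3 had 1. Of 16 replication and mitosis genes used below for comparison, 13 had a window and 12 of these held CCAAT. E2F-type words (TTTCCCGC, TTTGGCGC, TTTCGCGC and TTTGCCGC, both strands) were present in 2.17% of all windows, in 5 of the 13 replication and mitosis genes and, within the set described here, in Ezh2 (TTTGGCGC). CpG pairs numbered 2 in the Dnmt1 window, 11 in Uhrf1 and 30 in Ezh2, against a median of 7 over all windows, and the highest numbers in the set were 56 in Tet2 and 43 in Dnmt3a. The Tet1 window (chr10:62887295-62887574) and the Tet3 window (chr6:83441649-83441928) lie inside genes that extend upstream to 62908996 and 83459084. The Ezh2 window printed above also lies inside its gene, which extends upstream to 47595341. So do the Tet2 window (chr3:133544361-133544640) and the Dnmt3a window (chr12:3806730-3807009), in genes that extend upstream to 133545139 and 3806007. The CCAAT, E2F and CpG counts describe the chosen windows, whether or not those starts are used in these cells. A match is a description of these letters only and not evidence that a factor binds there.

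Levels per kilobase of all annotated exons allow only a rough comparison of different genes, since the exons in use were not measured. On this scale Hdac2 was the most abundant of the 10 transcripts in all 4 groups. Its brain levels were 57.3 ± 1.94 CPM per kb at E13.5 and 30.7 ± 0.731 at P7 (SD, n = 3). Dnmt1 had the next highest mean in each group, with E13.5 levels of 36.8 ± 1.20 CPM per kb in brain and 22.5 ± 2.02 in spinal cord (SD, n = 3). Uhrf1 was close to it in E13.5 brain, at 35.1 ± 2.27 CPM per kb (SD, n = 3). At the other end, Dnmt3b was the least abundant, with brain levels of 2.19 ± 0.273 CPM per kb at E13.5 and 0.724 ± 0.0802 at P7 (SD, n = 3). Levels spanned 3.87-fold from the lowest to the highest of the 12 libraries for Dnmt3b, 3.83-fold for Ezh2 and 3.61-fold for Uhrf1, and 1.65-fold for Tet1, the gene with the narrowest span.

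**Figure D1:**
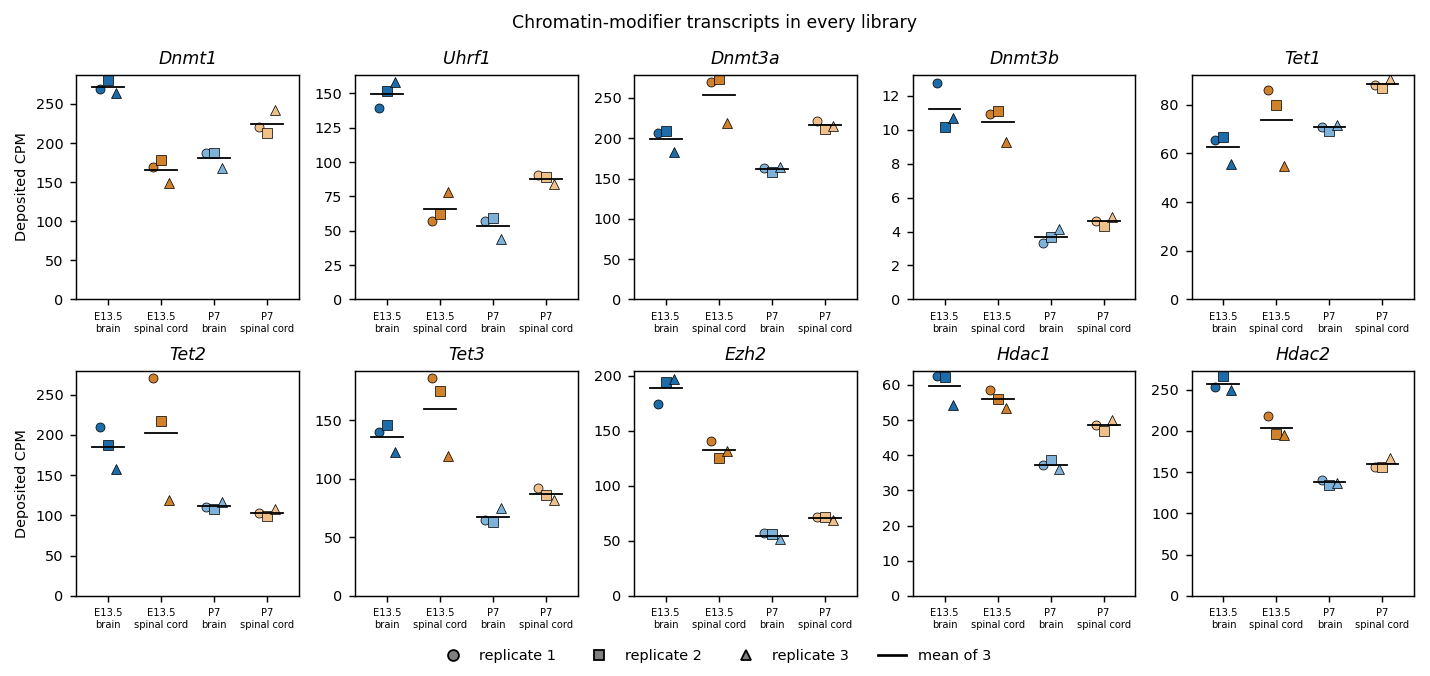
Deposited CPM of each of the 10 genes (vertical axes, linear and starting at 0) in the 12 libraries, grouped by age and region along the horizontal axes. Symbols are replicates and bars are means of 3. Ezh2 and Dnmt3b libraries at P7 all lie below those at E13.5, whereas Dnmt1 and Uhrf1 are highest in E13.5 brain and differ in order between the regions.

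Which of these genes changed between the embryonic and the postnatal population was asked within each region. Differences were tested with limma on log2(CPM + 0.5), with Benjamini-Hochberg adjustment over all 18319 genes. A gene is said to have risen or fallen when its adjusted p was under 0.05, and called when it also changed more than 2-fold. In brain, 4 of the 10 genes were called and all 4 were lower at P7 (Uhrf1, Dnmt3b, Tet3 and Ezh2), against 27.7% of all tested genes called in either direction and 16.7% called lower. With TMM scaling 3 of the 10 were called, against 13.9% of all tested genes called lower, and Tet3 was no longer among them. Without the fold threshold 9 of 10 had an adjusted p under 0.05, all lower, where 61.3% of all tested genes passed and 37.6% were lower. With TMM scaling these were 7 lower and 1 higher, against 28.8% and 30.4% of all tested genes, since Dnmt3a and Tet2 no longer passed and Tet1 did. Averaged over both regions, 2 of 10 were called (Dnmt3b and Ezh2, both lower), against 29.4% of all tested genes, and 9 of 10 passed on the adjusted p alone, against 72.9%. In spinal cord 1 of 10 was called, Dnmt3b, against 35.1% of all tested genes called in either direction and 18.2% called lower. There 8 of 10 passed on the adjusted p alone, 6 lower and 2 higher, against 70% of all tested genes, 30.9% lower and 39.1% higher. Libraries of the 2 ages did not overlap in brain for any of the 10 genes, 9 being lower at P7, as for 72.6% of all tested genes, with 44.9% lower. This holds in the deposited scaling, while with TMM scaling the ages of Dnmt3a overlapped, with 189.9, 178 and 186 CPM at P7 beside 207, 209 and 183 CPM at E13.5. In spinal cord they did not overlap for 9 of the 10, with 6 lower and 3 higher, as for 70.8% of all tested genes, with 30.8% lower and 39.9% higher. The median change of the 10 genes was -0.80 log2 units in brain (-0.61 with TMM scaling) and -0.28 in spinal cord, where the median of all tested genes was -0.19 (-0.02) and 0.12.

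**Figure D2:**
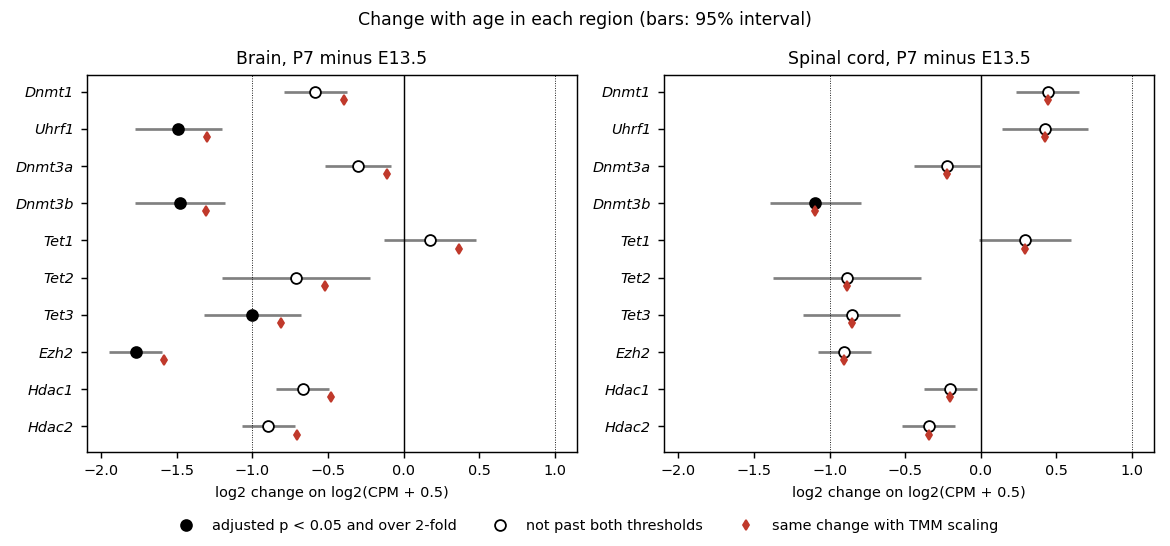
Log2 change from E13.5 to P7 of each gene on the log2(CPM + 0.5) scale (horizontal axis) in brain and in spinal cord. Points are fitted changes, bars their 95% intervals, filled points passed both thresholds, dotted lines mark 2-fold, and diamonds give the change with TMM scaling. All points but that of Tet1 lie left of 0 in brain, while Dnmt1 and Uhrf1 lie to the right of 0 in spinal cord.

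Dnmt1, the maintenance methyltransferase (chromosome 9, 20907209 to 20959888, minus strand, mm10), had opposite changes in the 2 regions. In brain it was at 269, 281 and 264 CPM at E13.5 and at 187, 187 and 169 CPM at P7. The spinal cord had 169, 178 and 149 CPM at E13.5 and 219.97, 212 and 242 CPM at P7. The ages did not overlap within either region, P7 being lower in brain and higher in spinal cord. Dnmt1 fell in brain by 0.58 log2 units (SE 0.0954; adjusted p = 0.000178), or by 0.39 with TMM scaling (adjusted p = 0.00381), and rose in spinal cord by 0.44 (SE 0.0954; adjusted p = 0.00118).

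Uhrf1 (chromosome 17, 56303321 to 56323486, plus strand), whose product binds hemimethylated DNA and recruits DNMT1, also had opposite changes in the 2 regions, over a wider span. Its levels in brain were 139, 152 and 158 CPM at E13.5 and 57.2, 59.1 and 43.8 CPM at P7. Spinal cord libraries were at 57.1, 62.4 and 78.5 CPM at E13.5 and at 90.8, 88.9 and 84.0 CPM at P7. E13.5 brain was thus well above the other groups, and the lowest P7 spinal cord library was above the highest E13.5 one. From E13.5 to P7 Uhrf1 fell by 1.49 log2 units in brain (SE 0.132; adjusted p = 8.92e-07), or by 1.30 with TMM scaling, and rose by 0.42 in spinal cord (SE 0.132; adjusted p = 0.0120). The rise in spinal cord was 0.29 with median-ratio scaling (adjusted p = 0.0748) and 0.33 without E13.5 spinal cord replicate 1 (adjusted p = 0.0543). A processed pseudogene, Gm5648, is 98.3% identical to Uhrf1 over 1590 bases and had a mean of 0.881 CPM against 89.2 CPM for Uhrf1, so the level of Uhrf1 is uncertain where reads were split between them.

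At E13.5 both maintenance genes were higher in brain than in spinal cord. Dnmt1 differed by 0.71 log2 units (95% interval 0.51 to 0.92; adjusted p = 0.000127) and Uhrf1 by 1.19 (0.90 to 1.47; adjusted p = 2.98e-05), with no overlap between the libraries. Uhrf1 was the 1 gene of the 10 called at this age, where 8.71% of all tested genes were called and 3.53% were called higher in brain. On the adjusted p alone 5 of 10 passed, 4 higher in brain (Dnmt1, Uhrf1, Ezh2 and Hdac2) and Dnmt3a lower, against 32.6% of all tested genes, 17.9% higher and 14.7% lower. Hdac2 and Dnmt3a did not pass when only the E13.5 libraries were fitted (adjusted p = 0.105 and 0.150). The same 5 were the genes whose libraries did not overlap between the regions at E13.5, as for 37.7% of all tested genes, with 20.5% higher in brain and 17.2% lower. Averaged over the ages, none of the 10 was called, against 4.2% of all tested genes, and 2 passed on the adjusted p alone, against 25.5%. At P7 the order was the opposite for Uhrf1, which was lower in brain by 0.73 log2 units (SE 0.132; adjusted p = 0.00149), and by 0.54 with TMM scaling (adjusted p = 0.0141). Dnmt1 was lower in P7 brain by 0.31 (adjusted p = 0.0268), a difference that shrank to 0.12 with TMM scaling (adjusted p = 0.462), which puts its 3 P7 brain libraries at 218, 211 and 191 CPM beside 219.97, 212 and 242 CPM in spinal cord.

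The shift in the regional difference between the ages was tested as an interaction, that is, how much the difference brain minus spinal cord shifted from E13.5 to P7. It was -1.91 log2 units for Uhrf1 (SE 0.186; adjusted p = 1.49e-05) and -1.03 for Dnmt1 (SE 0.135; adjusted p = 0.000120). These 2 genes were called, against 16.3% of all tested genes, and 5 of 10 passed on the adjusted p alone, all with a negative shift, against 39.8% of all tested genes and 28.7% with a negative shift. With TMM scaling, under which 15% of all tested genes were called, the interaction was -1.72 for Uhrf1, still called, and -0.83 for Dnmt1 (adjusted p = 0.000687), under 2-fold. The other 3 that passed were Ezh2 at -0.87 (adjusted p = 0.000122), Hdac2 at -0.55 (adjusted p = 0.00237) and Hdac1 at -0.47 (adjusted p = 0.00650), and with TMM scaling the values of Hdac2 and Hdac1 were -0.36 (adjusted p = 0.0322) and -0.28 (adjusted p = 0.0857). The interaction of Hdac2 was smaller still and did not pass with median-ratio scaling (-0.22, adjusted p = 0.164), edgeR (-0.29, adjusted p = 0.0780) or DESeq2 (-0.22, adjusted p = 0.0649), nor did it pass with TMM scaling and the replicate block (adjusted p = 0.0503). Dnmt3a, Dnmt3b and the 3 Tet genes did not pass in either scaling, although Tet2 did without E13.5 spinal cord replicate 3 (0.51, adjusted p = 0.0157).

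**Figure D3:**
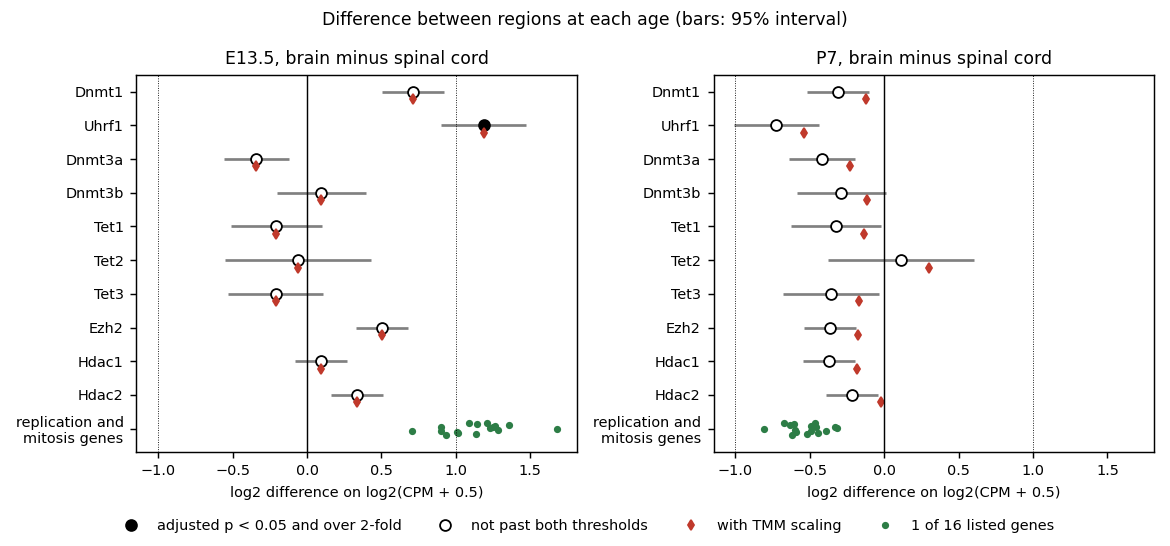
Log2 difference between brain and spinal cord (brain minus spinal cord, log2(CPM + 0.5) scale, horizontal axis) at E13.5 and at P7 for the 10 genes, with 95% intervals, and for 16 replication and mitosis genes as single dots in the bottom row. Filled points passed both thresholds and diamonds give TMM scaling. Dnmt1, Uhrf1, Dnmt3b, Ezh2, Hdac1 and Hdac2 lie right of 0 at E13.5 and left of 0 at P7 in the deposited scaling. The 16 dots do the same. At E13.5 the intervals of Dnmt3b and Hdac1 include 0.

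DNMT1 and UHRF1 act at the replication fork, and the same libraries were therefore examined for 16 genes of replication and mitosis (Mcm2 to Mcm7, Pcna, Rrm2, Tyms, Gins2, Mki67, Top2a, Ccnb1, Cdk1, Aurkb and Bub1). Their summed level in brain was 2775 to 2856 CPM at E13.5 and 1136 to 1440.2 CPM at P7, and that in spinal cord 1249.7 to 1304 CPM at E13.5 and 1805 to 1960.2 CPM at P7. As with Uhrf1, E13.5 brain was highest and P7 spinal cord came next. At E13.5, 16 of 16 were higher in brain on the adjusted p, by 0.70 to 1.68 log2 units, against 17.9% of all tested genes. Of the 16, 12 were called, against 3.53% of all tested genes called higher. In spinal cord 11 of 16 rose with age, against 39.1% of all tested genes, and Pcna and Rrm2 were called, where 16.9% of all tested genes were called higher. In brain 16 of 16 fell, against 37.6%, and 11 were called lower, against 16.7%, or 5 with TMM scaling, against 13.9%. At E13.5 Mki67, a marker of cycling cells, was at 635 to 704 CPM in brain and 229 to 322 CPM in spinal cord.

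Set against the mean log2 level of the Mcm genes in the same library, which takes out the scaling, Dnmt1 was 0.24 log2 units higher at P7 than at E13.5 (exact two-sided permutation test over 400 arrangements of age within region, p = 0.07, adjusted over 16 such tests 0.133) and Uhrf1 0.22 lower (exact permutation p = 0.06, adjusted 0.133). Neither passed, and the differences between regions, averaged over the ages, were -0.02 for Dnmt1 and 0.01 for Uhrf1 (exact permutation p = 0.885 and 0.925). The smallest p this design allows is 0.005. These averages join unlike values. The change with age was 0.46 in brain and 0.03 in spinal cord for Dnmt1, and -0.44 and 0.01 for Uhrf1. The difference brain minus spinal cord was -0.24 at E13.5 and 0.20 at P7 for Dnmt1, and 0.24 and -0.22 for Uhrf1. In brain, Uhrf1 relative to the Mcm genes was at 0.17, 0.24 and 0.18 log2 units at E13.5 and -0.27, -0.20 and -0.26 at P7, and in spinal cord at -0.08, -0.06 and 0.02 at E13.5 and 0.02, 0.05 and -0.16 at P7. Dnmt1 on the same scale had brain values of 1.12, 1.12 and 0.92 at E13.5 against 1.43, 1.45 and 1.67 at P7. The ages were thus apart for both ratios in brain, and these values within 1 region were not tested on their own. Ezh2 behaved otherwise. Its level relative to the Mcm genes in brain was 0.50, 0.60 and 0.50 log2 units at E13.5 and -0.28, -0.27 and -0.03 at P7, and in spinal cord 1.22, 0.95 and 0.76 at E13.5 and -0.32, -0.27 and -0.44 at P7. All 6 P7 libraries were below all 6 E13.5 libraries, and the ratio fell by 1.02 log2 units with age (exact permutation p = 0.005, adjusted 0.0160).

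**Figure D4:**
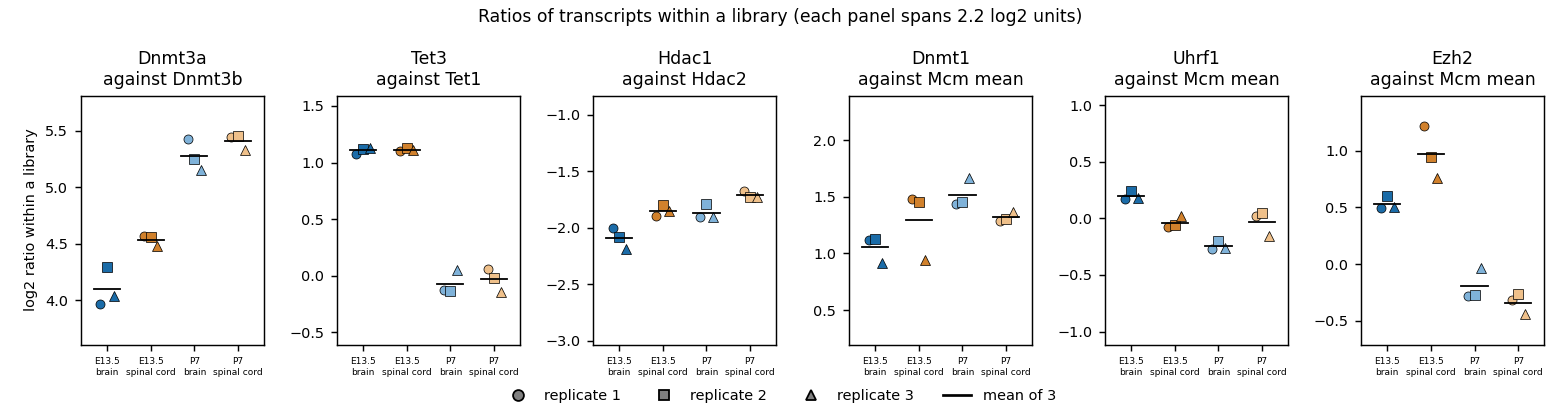
Log2 ratio of transcripts within each library for 3 pairs of related genes and for Dnmt1, Uhrf1 and Ezh2 against the mean of the Mcm genes (vertical axes, each panel spanning 2.2 log2 units). Symbols are replicates and bars are means of 3. The ratios Dnmt3a to Dnmt3b, Tet3 to Tet1 and Ezh2 to Mcm separate the ages completely over both regions, whereas those of Dnmt1 and Uhrf1 to Mcm separate them in brain and overlap in spinal cord.

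The de novo methyltransferases differed in how much they moved. Dnmt3b (chromosome 2, 153649450 to 153687730, plus strand) in brain was at 12.8, 10.1 and 10.7 CPM at E13.5 and at 3.30, 3.67 and 4.12 CPM at P7. Spinal cord levels were 10.9, 11.1 and 9.28 CPM at E13.5 and 4.62, 4.35 and 4.87 CPM at P7. The ages were apart in both regions by a clear margin. The fall was 1.48 log2 units in brain (SE 0.137; adjusted p = 1.42e-06; 1.31 with TMM scaling) and 1.09 in spinal cord (SE 0.137; adjusted p = 1.37e-05), and the regions did not differ detectably at either age (0.10, 95% interval -0.20 to 0.39, at E13.5 and -0.29, -0.59 to 0.01, at P7).

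Dnmt3a (chromosome 12, 3806007 to 3914443, plus strand), the other de novo enzyme, was at 207, 209 and 183 CPM at E13.5 and 163, 158 and 164 CPM at P7 in brain. In spinal cord it was at 269.97, 273 and 218 CPM at E13.5 and 222, 212 and 215 CPM at P7. Brain was below spinal cord at both ages, and the ages lay close together. Its change with age was -0.30 log2 units in brain (adjusted p = 0.0212), but -0.11 with TMM scaling (adjusted p = 0.376), and -0.22 in spinal cord (adjusted p = 0.0645), or -0.33 without E13.5 spinal cord replicate 3 (adjusted p = 0.00144). The lower level in brain was 0.34 log2 units at E13.5 (adjusted p = 0.0207, and 0.0657 to 0.0829 when any 1 of 3 E13.5 libraries was left out) and 0.42 at P7 (adjusted p = 0.00827), of which 0.23 was left with TMM scaling (adjusted p = 0.158). Within a library, the ratio of Dnmt3a to Dnmt3b, uncorrected for length and read here only for its change, rose by 1.02 log2 units with age (0.87 in spinal cord, 1.18 in brain; exact permutation p = 0.005, adjusted 0.0160).

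Of the genes for the erasing enzymes, Tet1 did not follow the other two. Tet1 (chromosome 10, 62804570 to 62908996, minus strand) was at 65.7, 66.9 and 55.7 CPM at E13.5 and 71.0, 69.3 and 71.8 CPM at P7 in brain. The spinal cord had 86.2, 79.7 and 54.8 CPM at E13.5 and 88.1, 87.0 and 90.6 CPM at P7. P7 libraries lay above E13.5 libraries of the same region, by 0.17 log2 units in brain (adjusted p = 0.295) and 0.29 in spinal cord (adjusted p = 0.0791). The spinal cord value was 0.42 without E13.5 replicate 1, which passed (adjusted p = 0.0181), and 0.09 without E13.5 replicate 3 (adjusted p = 0.307). With TMM scaling the brain difference was 0.36 and passed (adjusted p = 0.0397).

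Tet2 (chromosome 3, 133463679 to 133545139, minus strand) in brain was at 209, 187 and 158 CPM at E13.5 and 110.2, 108 and 117 CPM at P7, and in spinal cord at 271, 217 and 119 CPM at E13.5 and 103, 99.7 and 108 CPM at P7. Tet3 (chromosome 6, 83362373 to 83459084, minus strand) in brain was at 139, 146 and 122 CPM at E13.5 and 64.9, 63.1 and 74.7 CPM at P7, and in spinal cord at 186, 175 and 119 CPM at E13.5 and 92.1, 85.9 and 81.9 CPM at P7. For both genes all P7 libraries lay below all E13.5 libraries of the same region, and the lowest of the E13.5 spinal cord libraries was replicate 3, the library with few protein-coding reads. Tet2 fell in spinal cord by 0.89 log2 units (SE 0.226; adjusted p = 0.00367), and its change in brain was -0.71 (adjusted p = 0.0156), or -0.52 with TMM scaling (adjusted p = 0.0627) and -0.62 without E13.5 brain replicate 1 (adjusted p = 0.0604). Tet3 fell by 1.00 in brain (SE 0.147; adjusted p = 7.59e-05; 0.81 with TMM scaling, not called) and by 0.85 in spinal cord (SE 0.147; adjusted p = 0.000209). Without E13.5 spinal cord replicate 3 the changes in spinal cord were -1.23 for Tet2 and -1.05 for Tet3, both called. In the same fit, brain was lower than spinal cord at E13.5 by 0.40 log2 units for Tet1 (adjusted p = 0.00193), 0.40 for Tet2 (adjusted p = 0.0144) and 0.41 for Tet3 (adjusted p = 0.00427), differences that did not pass with all 12 libraries.

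The balance of Tet3 to Tet1 varied little among the E13.5 libraries and more at P7. The log2 ratio at E13.5 was 1.08, 1.12 and 1.13 in brain and 1.10, 1.13 and 1.11 in spinal cord, replicate 3 included. At P7 it was -0.13, -0.13 and 0.06 in brain and 0.06, -0.02 and -0.14 in spinal cord. The ratio fell by 1.16 log2 units with age (exact permutation p = 0.005, adjusted 0.0160), by 1.15 in spinal cord and 1.18 in brain, and no difference between regions was detected (-0.02; exact permutation p = 0.675).

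Ezh2, the catalytic subunit of PRC2 (chromosome 6, 47530139 to 47595341, minus strand), showed the largest fall of the 10 genes in brain. In brain it was at 174, 195 and 197 CPM at E13.5 and 56.8, 56.2 and 51.5 CPM at P7. The spinal cord had 140.5, 126 and 132 CPM at E13.5 and 71.9, 71.2 and 68.9 CPM at P7. All 4 groups were separate from each other, with both E13.5 groups on top, brain above spinal cord, and both P7 groups underneath in the reverse order. With TMM scaling, P7 brain was at 66.1, 63.6 and 58.2 CPM, still below P7 spinal cord. Ezh2 fell with age by 1.77 log2 units in brain (SE 0.0811; adjusted p = 3.35e-09; 1.58 with TMM scaling) and by 0.90 in spinal cord (SE 0.0811; adjusted p = 6.48e-07), and the fall was steeper in brain by the interaction given above. At E13.5 brain exceeded spinal cord by 0.51 log2 units (adjusted p = 0.000493), whereas the P7 difference of -0.36 (adjusted p = 0.00524) was -0.17 with TMM scaling (adjusted p = 0.186).

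Ezh1, which encodes the alternative catalytic subunit of PRC2 and is known from non-dividing cells, in brain was at 27.5 ± 4.34 CPM at E13.5 and 21.2 ± 1.72 CPM at P7, and in spinal cord at 49.1 ± 12.8 and 22.8 ± 0.622 CPM (SD, n = 3). It fell in spinal cord by 1.05 log2 units (SE 0.174; adjusted p = 0.000148), so that the ratio of Ezh2 to Ezh1 changed by -1.42 in brain and 0.15 in spinal cord, and its change over both regions did not pass (-0.63; exact permutation p = 0.075, adjusted 0.133). The non-catalytic core subunits moved less than Ezh2. Eed fell in brain by 0.77 log2 units (adjusted p = 1.96e-05; 0.58 with TMM scaling) and changed by -0.16 in spinal cord (adjusted p = 0.166). Suz12 changed by -0.54 in brain (adjusted p = 0.0169; -0.35 and adjusted p = 0.102 with TMM scaling) and by 0.32 in spinal cord (adjusted p = 0.114).

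Hdac1 and Hdac2, class I deacetylases that pair in the same complexes, were the closest of all pairs among the 10 in their profile over the 12 libraries, with a root mean square distance of 0.15 log2 units after each was centred on its own mean. Hdac2 (chromosome 10, 36974544 to 37001889, plus strand) in brain was at 253, 266 and 249 CPM at E13.5 and 141, 135 and 137 CPM at P7, and in spinal cord at 218, 196 and 194 CPM at E13.5 and 156, 156 and 166 CPM at P7. Hdac1 (chromosome 4, 129516104 to 129542713, minus strand) in brain was at 62.7, 62.3 and 54.2 CPM at E13.5 and 37.3, 38.6 and 36.1 CPM at P7, and in spinal cord at 58.4, 55.9 and 53.5 CPM at E13.5 and 48.6, 46.9 and 50.0 CPM at P7. P7 libraries of both genes were below E13.5 libraries of the same region throughout, with P7 brain lowest in the deposited scaling.

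Hdac2 fell by 0.90 log2 units in brain (SE 0.0806; adjusted p = 1.04e-06; 0.71 with TMM scaling) and by 0.34 in spinal cord (SE 0.0806; adjusted p = 0.00206). Hdac1 fell by 0.67 in brain (SE 0.0804; adjusted p = 1.37e-05; 0.48 with TMM scaling), and its change in spinal cord was -0.20 (SE 0.0804; adjusted p = 0.0385, and 0.0521 to 0.123 when any 1 of 7 libraries was left out). Hdac1 relative to Hdac2 in the same library was 0.18 log2 units higher at P7 (exact permutation p = 0.005, adjusted 0.0160) and 0.20 lower in brain than in spinal cord (exact permutation p = 0.005, adjusted 0.0160). A processed pseudogene, Gm10093, is 99.4% identical to Hdac1 over 1444 bases and had a mean of 3.26 CPM against 50.4 for Hdac1. Multi-mapping reads were shared out fractionally, so the level of Hdac1 is uncertain where reads were split between them.

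At P7 none of the 10 genes was called between the regions by limma, edgeR, DESeq2 or limma-voom, where 6.62% of all tested genes were called by limma. On the unadjusted p 8 of 10 were under 0.05, and 5 of 10 on the adjusted p (Dnmt1, Uhrf1, Dnmt3a, Ezh2 and Hdac1, all lower in brain), against 30% of all tested genes and 24.2% lower in brain. With TMM scaling, only Uhrf1 of these 5 passed. When only the P7 libraries were fitted, in the deposited scaling, Tet1 (-0.32), Tet3 (-0.36) and Hdac2 (-0.22) passed as well (adjusted p = 0.000520, 0.00549 and 0.00496). That fit takes its spread from P7 libraries alone, of which replicates 1 and 2 were unusually alike, so the spread may be understated. In the limma fit of all groups with P7 replicates 1 and 2 averaged, Dnmt1, Dnmt3a, Ezh2 and Hdac1 did not pass (adjusted p = 0.116, 0.0991, 0.0655 and 0.0506). Of the 10, 9 had all P7 brain libraries below all P7 spinal cord libraries in the deposited scaling, where 49.4% of all tested genes did and 61.7% did not overlap in either direction, and Tet2 had the opposite order.

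Other genes of the same pathways were taken from lists of 85 genes, of which 83 were tested. In brain 4 were called higher and 7 lower at P7, against 11% and 16.7% of all tested genes, and in spinal cord 6 higher and 9 lower, against 16.9% and 18.2%. Called genes were in both regions a smaller share of the lists than of all tested genes. Their median change was -0.32 log2 units in brain and -0.01 in spinal cord, against -0.19 and 0.12 for all tested genes.

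**Figure D5:**
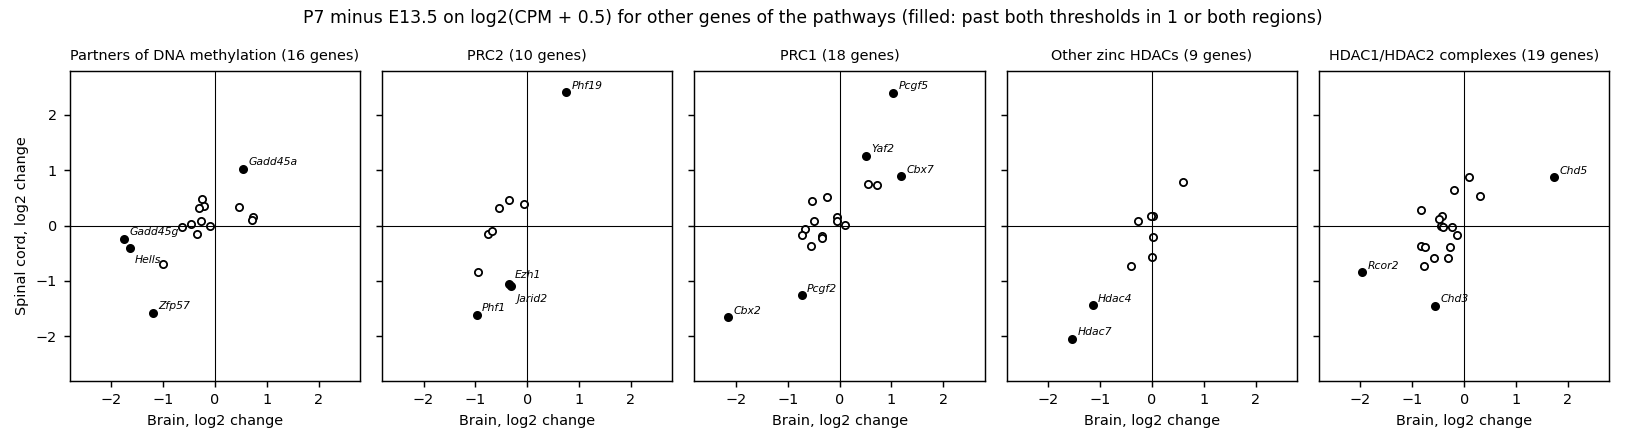
Log2 change from E13.5 to P7 in brain (horizontal axis) and spinal cord (vertical axis), on the log2(CPM + 0.5) scale, for tested genes of 5 pathway lists. Filled points with names passed both thresholds in 1 or both regions, open points did not. Cbx2, Zfp57, Hdac4, Hdac7 and Phf1 lie at the lower left and Pcgf5 and Cbx7 at the upper right.

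Of 17 tested partners of DNA methylation, 3 were called lower in brain and none higher, against 16.7% and 11% of all tested genes. In spinal cord 1 was called in each direction, against 18.2% of all tested genes called lower and 16.9% higher. Hells, a chromatin remodeller that helps DNA methylation, in brain was at 126 ± 4.23 CPM at E13.5 and 40.3 ± 7.79 CPM at P7, and in spinal cord at 63.0 ± 9.59 and 47.0 ± 2.77 CPM (SD, n = 3). It fell in brain by 1.65 log2 units (SE 0.140; adjusted p = 6.40e-07) and at E13.5 its brain level exceeded that of spinal cord by 1.00 (adjusted p = 0.000181). Zfp57, a zinc finger protein that keeps methylation at imprinted genes, fell by 1.20 in brain and 1.57 in spinal cord (adjusted p = 0.00107 and 9.53e-05). Gadd45g, of a stress-response family linked to demethylation, fell by 1.75 in brain (SE 0.318; adjusted p = 0.000420), and Gadd45a rose by 1.03 in spinal cord (SE 0.219; adjusted p = 0.00103). Averaged over both regions, Gadd45g changed by -0.99 and Gadd45a by 0.78. Uhrf2, the paralogue of Uhrf1, fell in both regions, by 0.99 in brain and 0.69 in spinal cord (adjusted p = 3.85e-06 and 6.36e-05), which in spinal cord is the opposite direction to Uhrf1. Tdg, the glycosylase that removes oxidised methylcytosine, rose in spinal cord by 0.48 (adjusted p = 0.000190) and changed by -0.25 in brain (adjusted p = 0.020; -0.06 and adjusted p = 0.576 with TMM scaling). Dnmt3l, the inactive cofactor of the de novo enzymes, had no reads in any library.

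In PRC2, besides Ezh2, none of 10 listed genes was called in brain by limma, against 27.7% of all tested genes. On the adjusted p, 7 fell and 1 rose in brain, where 61.3% of all tested genes passed and 37.6% were lower. In spinal cord 4 were called, against 35.1% of all tested genes. There Phf1, a subunit that helps recruit PRC2, fell by 1.61 log2 units (SE 0.135; adjusted p = 3.31e-07) and Jarid2, a cofactor of the complex, by 1.09 (SE 0.123; adjusted p = 5.43e-06). Phf19, a paralogue of Phf1, rose by 2.41 (SE 0.208; adjusted p = 4.52e-07), from 3.51 ± 1.42 to 20.0 ± 0.929 CPM (SD, n = 3). Averaged over both regions, the changes were -1.29 for Phf1, -0.70 for Jarid2 and 1.58 for Phf19. Both demethylases of the PRC2 mark fell in both regions without being called. Kdm6a fell by 0.73 in brain and 0.37 in spinal cord, and Kdm6b by 0.63 and 0.93 (adjusted p from 6.30e-05 to 0.0308).

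The 19 tested genes of Polycomb repressive complex 1 (PRC1) included calls in both directions. Cbx2, a chromobox reader, fell by 2.16 log2 units in brain (SE 0.144; adjusted p = 7.54e-08) and 1.65 in spinal cord (SE 0.144; adjusted p = 5.02e-07), from 44.1 ± 2.84 and 33.8 ± 8.61 CPM to 9.49 ± 0.208 and 10.2 ± 0.740 CPM (SD, n = 3). Its paralogue Cbx6 went the other way, rising by 0.71 in brain (adjusted p = 0.000257) and by 0.73 in spinal cord (adjusted p = 0.000163). Cbx7 rose by 1.18 in brain (SE 0.210; adjusted p = 0.000353) and by 0.89 in spinal cord (adjusted p = 0.00218), and Cbx8 did not pass in either region. The ring-finger subunit gene Pcgf5 rose in both regions, by 1.04 and 2.40 (adjusted p = 1.94e-05 and 6.99e-09), whereas Pcgf2 fell by 1.26 in spinal cord (adjusted p = 3.42e-06), where Yaf2 rose by 1.26 (adjusted p = 2.09e-07). Averaged over both regions, Pcgf2 changed by -0.995 and Yaf2 by 0.89.

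Among the 9 zinc-dependent deacetylases other than Hdac1 and Hdac2, Hdac4 and Hdac7, both of class IIa, had the largest changes. Hdac7 fell by 1.54 log2 units in brain (SE 0.113; adjusted p = 1.63e-07) and 2.05 in spinal cord (SE 0.113; adjusted p = 8.11e-09). Hdac4 fell by 1.14 in brain (adjusted p = 2.07e-06; 0.95 and not called with TMM scaling) and 1.44 in spinal cord (adjusted p = 1.54e-07). Hdac11, the class IV member, rose by 0.59 and 0.78 (adjusted p = 0.00137 and 0.000129). The class I genes Hdac3 and Hdac8 did not pass in either region, with changes of 0.03 and 0.18 for Hdac3 and 0.03 and -0.21 for Hdac8 in brain and spinal cord. Of 7 sirtuins, the NAD-dependent deacetylases, 1 was called, in both regions, against 27.7% of all tested genes in brain and 35.1% in spinal cord. Sirt2, a tubulin deacetylase found in myelin, in brain was at 25.1 ± 1.05 CPM at E13.5 and 357 ± 120.0 CPM at P7, and in spinal cord at 27.9 ± 4.0 and 887 ± 131 CPM (SD, n = 3). It rose by 3.75 and 4.97 log2 units in the 2 regions (adjusted p = 8.85e-09 and 6.39e-10), with the differentiating oligodendrocyte markers given above, whose part in it was not tested.

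Of 19 tested subunits of the HDAC1 and HDAC2 complexes, 1 was called higher and 1 lower in brain, against 11% and 16.7% of all tested genes. In spinal cord 1 was called lower, against 18.2% of all tested genes. Rcor2, a CoREST scaffold of neural progenitors, fell by 1.96 log2 units in brain (SE 0.143; adjusted p = 1.60e-07). Chd5, the NuRD remodeller of neural tissue, rose by 1.74 in brain (SE 0.122; adjusted p = 1.11e-07), and its paralogue Chd3 fell by 1.45 in spinal cord (SE 0.186; adjusted p = 1.66e-05).

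The tested genes whose profiles over the 12 libraries lay nearest to each member, as root mean square distance of log2(CPM + 0.5) after centring, are given as a description. For Ezh2 the nearest was Cdc25a, a phosphatase that drives entry into S phase, at a distance of 0.05 log2 units, while Ezh2 itself varied by 0.71 about its mean. Mean levels of Cdc25a in brain were 72.5 CPM at E13.5 and 21.4 CPM at P7, and in spinal cord 51.4 and 26.7 CPM. Uhrf1 lay nearest to Pimreg (0.08) and Hmgb2 (0.11), both known as proliferation-associated genes, and Dnmt1 to D10Wsu102e (0.07) and Ssrp1 (0.07), the latter a histone chaperone subunit. Hdac2 lay nearest to Rif1 (0.06), a regulator of replication timing, and Nup54 (0.06), and Hdac1 to Chd1l (0.05) and Rtel1 (0.05), a remodeller and a helicase. The nearest genes of the others were Adcy6 and Fbxw17 for Dnmt3a, Sept11 and Il6st for Dnmt3b, Preb and Atg2b for Tet1, Dpm1 and Caprin2 for Tet2, and Ppip5k2 and Brwd1 for Tet3, at 0.07 to 0.10.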

How the data were processed

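Sorted Pdgfra/GFP+ cells were measured by total RNA-seq in 12 libraries. The authors aligned stranded read pairs with STAR (2.5.0a) to mm10 and counted reads per GENCODE M8 gene with featureCounts (1.5.0-p1). Multi-mapping reads were counted fractionally and rounded, and use of the strand in counting is not given in the sources used here. The authors deposited CPM values (reads scaled to library sizes that had been rescaled by a factor). In 3 columns the deposited values exceed what plain CPM allows and are treated as a scaled signal. Every value in the 12 columns was a whole multiple of 1 read (100% of values, within 0.01 of a read), so reads could be recovered, and 3 reads correspond to 0.079 to 0.506 CPM. No column was left out (0). Symbols and positions came from GENCODE M21 on the same build, and promoter sequences from RefSeq (GRCm38.p6).

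Groups came from the sample titles. Tested genes (18319) had 0.7 CPM or more in 3 or more libraries. Values as log2(CPM + 0.5), a scale that understates changes of low genes, were fitted with limma (3.58.1, R 4.3.3) with an intensity trend and 1 mean per group over all 12 libraries, since the design took the unit to be CPM, where the study ran voom. Calls needed a Benjamini-Hochberg adjusted p under 0.05 and more than 2-fold. Alternatives were pseudocounts of 0.1 and 1, no filter, TMM and median-ratio scaling, limma-voom, edgeR (4.0.16), DESeq2 (1.42.0), a replicate block, only the samples compared, P7 replicates 1 and 2 averaged, and leaving out each library, to which TMM scaling with the block was added after seeing the data. On simulated counts for age in brain (18319 genes), limma recovered 100 of 100 genes changed 4-fold and 94 of 100 changed 2.5-fold, and called 0 others. Ratios within a library were compared by exact two-sided permutation tests. The members and gene lists were chosen with earlier results of these data known. Named genes are the 10 members, a fixed part of each list, the list genes called with age in either region, and the 2 tested genes nearest to each member. Lists not described in the report are neurons, astrocytes and radial glia, endothelium and erythroid cells, whose marker sums over the 12 libraries were 441 to 978, 683 to 1824, 20.7 to 111 and 8.00 to 141 CPM. The 6 OPC markers summed to 512 to 8673 CPM. The listed symbol Mideas was not matched. Some listed genes are not reported here. Libraries are separate pools of animals. The 95% intervals are limma's and rest on the spread between libraries, and floors on reads cover counting error only.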

Additional observations from a re-analysis of the deposited data

Results flagged for a closer look

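For 9 genes the region difference, under the same contrast in the 2 ages, differed between them. These were 2 of the 10 genes and 7 of the 83 tested pathway genes, where 16.3% of all tested genes were called. The 9 genes had a shift of more than 2-fold with an adjusted p under 0.05 in limma's test of the interaction. The shifts in the difference brain minus spinal cord from E13.5 to P7, in log2 units, were -1.03 for Dnmt1, -1.91 for Uhrf1, -1.24 for Hells, -1.51 for Gadd45g, -1.66 for Phf19, -1.36 for Pcgf5, -1.21 for Sirt2, -1.13 for Sap30 and -1.11 for Rcor2. With TMM scaling Dnmt1 (-0.83), Sap30 (-0.94) and Rcor2 (-0.93) were under 2-fold and the other 6 were still called, at -1.02 to -1.72. That scaling also called 2 of the 19 tested subunits of the HDAC1 and HDAC2 complexes with a positive shift. Neither was called in the deposited scaling, and 15% of all tested genes were called with TMM scaling. Sap30 is a subunit of the SIN3 complex and was named here after its values were seen. At P7 Sirt2 was lower in brain than in spinal cord by 1.35 log2 units (adjusted p = 0.000282), and at E13.5 Pcgf5 was higher in brain by 1.48 (adjusted p = 4.33e-06). At E13.5 the level of Gadd45g was 11.4 ± 5.65 CPM in brain and 8.41 ± 1.64 CPM in spinal cord (SD, n = 3).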

How the results depend on the processing

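Of the 10 genes, 2 were called for age over both regions, 4 for age in brain, 1 for age in spinal cord, 0 for region averaged over the ages, 1 for region at E13.5, 0 for region at P7 and 2 for the interaction. Without the fold threshold these counts were 9, 9, 8, 2, 5, 5 and 5. For age in spinal cord, median-ratio scaling called 3, edgeR 2 and DESeq2 4, with Tet2, Tet3 and Ezh2 close to 2-fold. For the interaction TMM scaling, median-ratio scaling, limma-voom, edgeR, DESeq2 and TMM scaling with the block each called 1. Leaving out 1 library gave 2 to 3 calls for age over both regions, 3 to 4 in brain, 1 to 3 in spinal cord (3 without E13.5 spinal cord replicate 3), 1 to 2 for the interaction (1 without E13.5 brain replicate 2, E13.5 spinal cord replicate 3, P7 brain replicate 3 or P7 spinal cord replicate 3) and unchanged counts for the 3 region contrasts. For region averaged over the ages, 6 of 10 had an unadjusted p under 0.05, and edgeR, DESeq2 and limma-voom also called 0.

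Replicate numbers are shared by the groups but do not pair the libraries (correlations of deviations between same-numbered libraries from -0.21 to 0.41). When the replicate block was put in the fit, the counts were 2, 4, 1, 0, 1, 0 and 2.

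Some differences near 0 changed sign. Dnmt3b at E13.5 was -0.017 with DESeq2. Hdac1 at E13.5 was -0.0033 with median-ratio scaling and -0.0057 with DESeq2. Hdac2 at P7 was 0.021 with median-ratio scaling, 0.0077 with limma-voom, 0.0073 with edgeR and 0.020 with DESeq2. Leaving out 1 library took Tet2 between regions at E13.5 from -0.40 to 0.19. Among ratios between regions, Dnmt3a to Dnmt3b (-0.28) was -0.27 at a pseudocount of 0.1 and -0.29 with P7 replicates 1 and 2 averaged (adjusted p = 0.0533 and 0.0889), Hdac1 to Hdac2 was -0.20 with them averaged (adjusted p = 0.0533), and Tet3 to Tet1 then reversed to 0.0087. Leaving out 1 library gave -0.33 to -0.25 for Dnmt3a to Dnmt3b, -0.22 to -0.18 for Hdac1 to Hdac2, -0.052 to 0.0034 for Tet3 to Tet1, -0.11 to 0.029 for Dnmt1 to Mcm and -0.022 to 0.030 for Uhrf1 to Mcm. The 8 changes of ratios with age kept their direction and side of the threshold in all alternatives run. Where values above do not show a cause, it was not tested. P7 replicates 1 and 2 were unusually alike in each region (SD of log2 ratios 0.069 and 0.075, against 0.22 to 0.24 for pairs with replicate 3), so spreads at P7 may be understated. Depth did not limit the 10 genes, whose lowest value (3.30 CPM, Dnmt3b) was above the 0.506 CPM that 3 reads give in E13.5 spinal cord replicate 3.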
